A study of Homo sapiens with 9 samples.

Results

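The genes described here are 41 genes of glycolysis and of the response to low oxygen: glucose transporters and hexokinases, the enzymes from glucose-6-phosphate to pyruvate, the enzymes and transporters that handle lactate and pyruvate, the oxygen sensors with their transcription factors, and genes that those factors are known to induce. They were taken from a list of gene names and not picked by measured differences. The list was, however, chosen with earlier results of these data known. Of the 41, 37 had at least 1 probe set that the platform annotation ties to exactly 1 gene symbol, among 18239 genes in all. SLC2A3 was read only by probe sets shared with SLC2A14, and SLC16A1, SLC16A3 and CA9 were not analysed here.

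The 9 samples, each read on 1 Affymetrix expression array, were cultures of K562, a long-established line from a human leukaemia with erythroid and megakaryocytic character. In 3 samples the cells carried a virally delivered wild-type (WT) CALR, in 3 the Del52 form and in 3 the Ins5 form; CALR encodes calreticulin, a calcium-binding chaperone of the endoplasmic reticulum. Every sample, the WT ones included, went through the same repeated transduction in retronectin-coated plates and a magnetic selection for NGFR, a surface marker, with a stated purity above 90%. An untransduced group was not analysed here, and the labels name no change to the line's own CALR gene, so each construct came on top of it. All cultures were grown in standard medium with serum, and no oxygen level or hypoxic treatment is named. The labels number the samples 1 to 3 in each group without saying whether they were separate transductions, so p-values measure the spread between these samples.

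Glycolysis splits glucose into pyruvate in the cytosol and yields ATP without oxygen, and lactate dehydrogenase then turns pyruvate into lactate to regenerate NAD+. The hypoxia-inducible factors HIF1A and EPAS1 (HIF-2α) are made continuously and marked for degradation by prolyl hydroxylases, the EGLN enzymes, which need oxygen. When oxygen falls the factors persist, pair with ARNT and bind DNA at sites with the core ACGTG or GCGTG. Their known targets include most glycolytic enzymes, SLC2A1, VEGFA, the BNIP3 genes and EGLN3 itself, and the protein levels of the factors are set largely after transcription, so their mRNA is not a reading of their activity.

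Values are log2 expression values, on which a difference of 1 is a 2-fold change, and errors are SD over 3 arrays unless stated. Array medians over all probe sets lay between 3.73 and 3.76. K562 marker genes were present, with 7 of the 8 measured above 5 (HBG1, a fetal globin, at 11.91 and GATA1, the erythroid and megakaryocytic factor, at 8.25, as means over 9 arrays). Of 15 measured markers of lymphocytes, myeloid cells, fibroblasts and epithelia, 13 were below 4, and the exceptions were the epithelial genes EPCAM (8.54) and KRT8 (7.71); the summed level of the 15 ranged from 54.605 to 55.264 in Del52, from 54.054 to 54.916 in Ins5 and from 54.488 to 54.864 in WT. CALR itself differed by -0.15 between Del52 and WT (limma, unadjusted p = 0.317). Its probe set does not separate the construct from the line's own transcript as far as the sources used here say. NGFR, the selection marker, was low, with means of 3.36 in WT, 3.42 in Del52 and 3.43 in Ins5. Whether its probe set reads the delivered marker was not tested, so these values do not show the selection.

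The arrays did not all sit alike within their groups. The first principal component over all genes, which held 70.5% of the variance, set WT replicate 2 (0.57, scores scaled to unit length) farthest from WT replicate 3 (-0.57). The array control probe sets at the 3′ and 5′ ends of the actin transcript differed by 1.08 in WT replicate 2, the lowest of the 9 arrays, by 1.31 in WT replicate 3 and by at most 1.39 elsewhere (WT replicate 1). The same difference for GAPDH was 0.03 in WT replicate 2, 0.11 in WT replicate 3 and 0.17 in Ins5 replicate 2. The part of RNA quality in the results that rest on these arrays was not tested. The relations to LDHA and the limma calls are given with and without WT replicates 2 and 3. The SDs within groups, the ranges and the distances between arrays are given only with them.

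Most of the variation of the glycolysis and hypoxia genes lay between arrays of the same construct. The median SD within groups was 0.197 over the 37 members, against 0.0977 over all genes, and 13 of the 37 were above the 90th percentile of all genes (0.302). Over the 9 arrays the members' median range was 0.556, against 0.317 for all genes. In a bulk measurement like this one, fewer cells expressing a gene and less RNA per cell cannot be told apart.

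**Figure D1:**
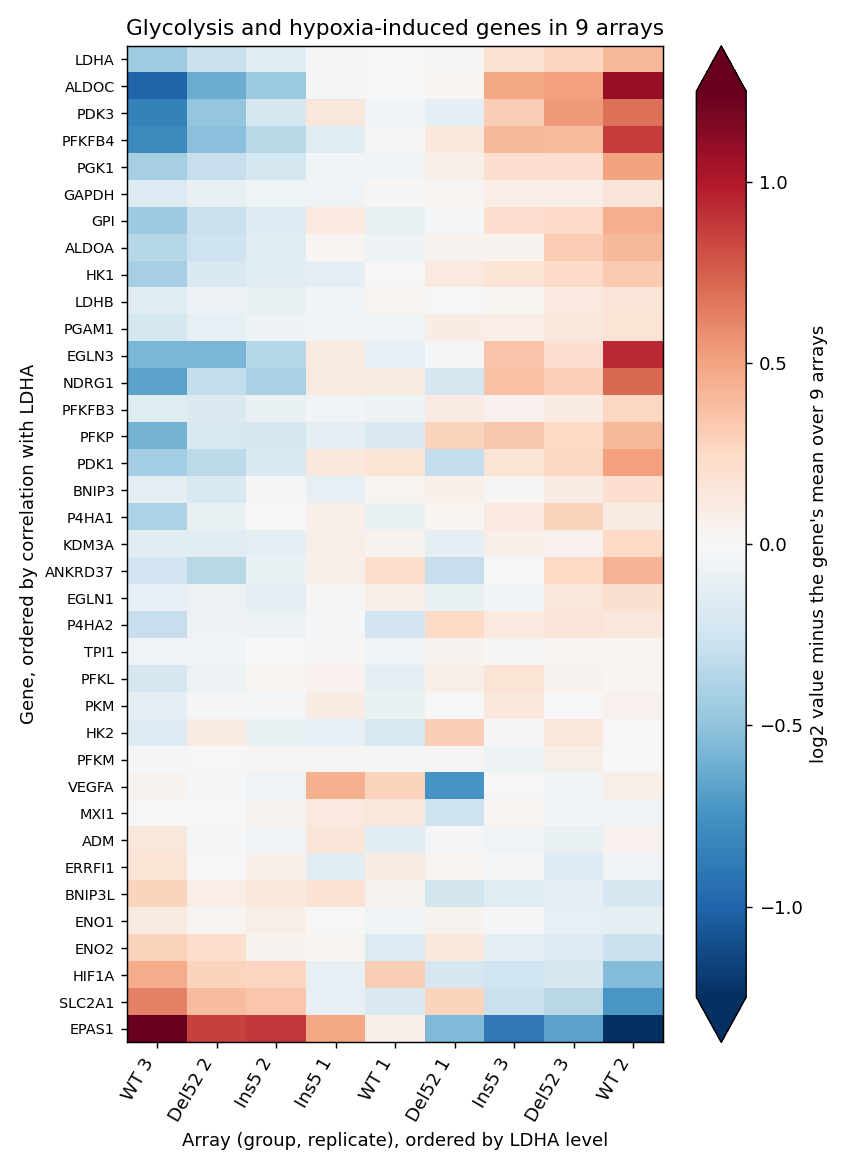
Each cell shows a member's log2 value in 1 array minus its mean over the 9 arrays, with genes ordered by their correlation with LDHA and arrays by their LDHA level. WT replicate 2 and WT replicate 3 carry opposite colours over most of the glycolytic enzymes, and EPAS1, HIF1A and SLC2A1 run the other way.

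Among the genes of the oxygen-sensing step, EPAS1 had the widest spread of all members, with an SD within groups of 1.20, at the 99.9th percentile of all genes. Its values were 6.97, 5.17 and 8.46 in the WT arrays, 6.35, 7.76 and 6.24 in Del52 and 7.39, 7.78 and 6.01 in Ins5. WT replicate 2 was the lowest and WT replicate 3 the highest array, and the ranges of Del52 and Ins5 both lay inside that of WT. HIF1A, the more widely expressed of the 2 factors, ran the same way, with 7.68, 6.83 and 7.83 in WT, 7.16, 7.64 and 7.15 in Del52 and 7.26, 7.64 and 7.12 in Ins5. EGLN3, a hydroxylase whose gene is itself induced by HIF, ran the opposite way, with 2.88, 3.91 and 2.41 in WT, 2.97, 2.41 and 3.19 in Del52 and 3.09, 2.63 and 3.34 in Ins5. All 9 EGLN3 values are in the range of the antigenomic control probe sets, whose means spanned 1.56 to 6.35 with a median of 2.01, so its level is poorly set. The same holds for every array value of PFKFB4, PDK3 and NDRG1 given below. Every value of PFKL, PFKM, PFKFB3, ENO2, P4HA2, ANKRD37, ADM and ERRFI1 also lies in that range. So do some of the values of EPAS1, ALDOC, HK2 and PDK1, and the lowest value of PFKP and of P4HA1. EGLN1, the main oxygen-sensing hydroxylase in most cells, spanned a narrower range, 7.77 to 8.10 over all arrays.

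In upper glycolysis, which spends ATP to form triose phosphates, the brain-enriched aldolase ALDOC spread most. It read 6.82, 7.91 and 5.82 in WT, 6.85, 6.20 and 7.34 in Del52 and 6.80, 6.36 and 7.31 in Ins5, and WT replicate 2 was again an extreme, here the highest array. PFKFB4, which makes the activator fructose-2,6-bisphosphate, read 5.03, 5.88 and 4.21 in WT, 5.14, 4.48 and 5.40 in Del52 and 4.86, 4.66 and 5.41 in Ins5. The order of the 3 WT arrays was the one seen for ALDOC, and the 3 groups overlapped for both genes. PFKM, the muscle phosphofructokinase subunit, was flat, between 5.94 and 6.07, with an SD within groups of 0.035, at the 5.8th percentile of all genes.

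Of the genes that set the fate of pyruvate and lactate, PDK3, a kinase that shuts off pyruvate dehydrogenase, read 4.59, 5.31 and 3.78 in WT, 4.51, 4.14 and 5.16 in Del52 and 4.76, 4.41 and 4.94 in Ins5. LDHA, the subunit that favours lactate formation, read 10.90, 11.32 and 10.46 in WT, 10.92, 10.63 and 11.18 in Del52 and 10.89, 10.77 and 11.08 in Ins5. Its partner subunit LDHB read 10.80, 10.94 and 10.63 in WT, 10.78, 10.70 and 10.90 in Del52 and 10.73, 10.68 and 10.80 in Ins5. In all 3 genes WT replicate 2 was the highest array and WT replicate 3 the lowest. GAPDH, the enzyme of lower glycolysis that is often used as a loading reference, kept that order over a narrower range: 10.71, 10.84 and 10.52 in WT, 10.72, 10.60 and 10.78 in Del52 and 10.65, 10.64 and 10.78 in Ins5. TPI1, which interconverts the triose phosphates, stayed between 10.20 and 10.30.

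Hypoxia-induced effectors were mixed. NDRG1, a stress-responsive gene strongly induced by low oxygen, read 3.87, 4.47 and 3.09 in WT, 3.53, 3.45 and 4.06 in Del52 and 3.87, 3.35 and 4.13 in Ins5, with the same order of WT arrays as ALDOC. ADM, a vasodilator peptide, showed no such range, with 3.29, 3.47 and 3.55 in WT, 3.39, 3.40 and 3.32 in Del52 and 3.56, 3.37 and 3.37 in Ins5. ERRFI1, a feedback inhibitor of EGF receptor signalling, read 3.70, 3.55 and 3.77 in WT, 3.64, 3.60 and 3.45 in Del52 and 3.48, 3.67 and 3.59 in Ins5. ADM and ERRFI1 sat low on the array's scale throughout.

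The remaining members filled the same pathway. HK1, the constitutive hexokinase, ranged from 9.11 in WT replicate 3 to 9.86 in WT replicate 2, GPI, which isomerises glucose-6-phosphate, from 7.90 to 8.80 in the same arrays, and the platelet phosphofructokinase subunit PFKP from 6.27 to 7.27. ALDOA, the main aldolase, ranged from 9.73 to 10.50, PGK1 from 9.30 to 10.22, and PGAM1, the mutase of lower glycolysis, from 9.64 to 10.03. In all of these WT replicate 3 was the lowest array and WT replicate 2 the highest. The enolases had the reverse order, with ENO1, the common form, at 10.16 in WT replicate 2 and 10.38 in WT replicate 3, and ENO2, the neuronal form, at 5.56 and 6.12. PFKFB3, a sister gene of PFKFB4, ranged from 5.72 to 6.16, and PDK1, a pyruvate dehydrogenase kinase, from 5.77 to 6.71.

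Among the other effectors, the mitophagy genes differed from each other in direction. BNIP3 ranged from 8.37 in Del52 replicate 2 to 8.76 in WT replicate 2, and BNIP3L from 8.47 in Del52 replicate 1 to 8.98 in WT replicate 3. ANKRD37, a small HIF target, ranged from 4.48 to 5.25, and the histone demethylase KDM3A from 7.19 to 7.57. WT replicate 2 held the highest value of BNIP3, ANKRD37 and KDM3A.

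**Figure D2:**
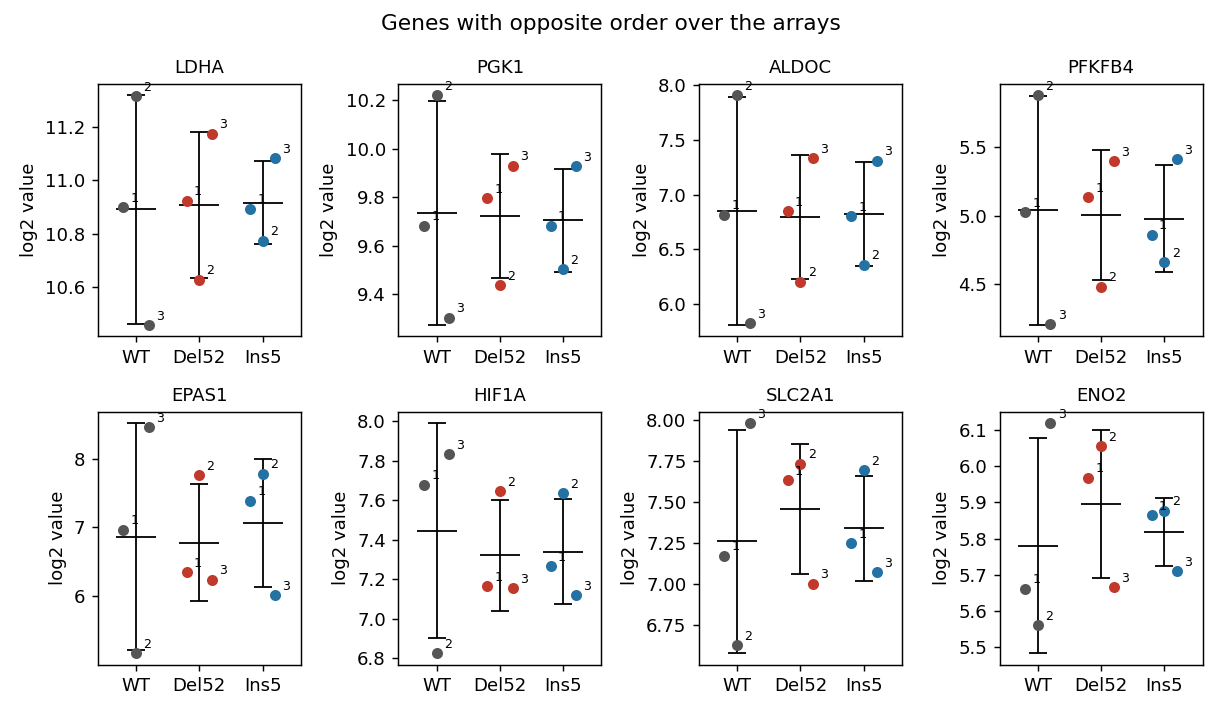
Points are the log2 values of single arrays, by construct, for LDHA, PGK1, ALDOC, PFKFB4, EPAS1, HIF1A, SLC2A1 and ENO2. The WT group spans the widest range for EPAS1 (5.17 to 8.46) and ALDOC (5.82 to 7.91), and the Del52 and Ins5 arrays fall between the WT ends.

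The distance between WT replicates 2 and 3 was then read for each role. These 2 arrays were picked from the data, as the ends of the first principal component, so the distances are a description and carry no test. The value was positive, that is higher in replicate 2, for 28 of the 37 members (75.7%), against 55.7% of all genes. At least 0.5 higher were 13 members (35.1%, against 9.72% of all genes), and at least 0.5 lower were 4 members, SLC2A1, ENO2, HIF1A and EPAS1 (10.8%, against 9.89%). At least 1 higher were 5 members, ALDOC and the dim PFKFB4, PDK3, EGLN3 and NDRG1, against 2.65% of all genes, and at least 1 lower were 3, against 3.34%.

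Of the 3 measured genes of glucose uptake and phosphorylation, HK1 and HK2 were higher in WT replicate 2 and SLC2A1 lower, with a median of 0.16. All 9 genes of upper glycolysis were higher in WT replicate 2, with a median distance of 0.76. The 4 measured genes of lactate and pyruvate fate were higher too, with a median of 0.90. Lower glycolysis was split, 4 of 6 higher with a median of 0.25, and the enolases ENO1 and ENO2 were the lower ones. In oxygen sensing EGLN1 and the dim EGLN3 were higher and the factors HIF1A and EPAS1 lower, with a median of -0.36. Of the 11 measured effectors, 7 were higher, with a median of 0.33. The single distances ran from -3.29 for EPAS1, -1.36 for SLC2A1 and -1.01 for HIF1A to 1.67 for PFKFB4 and 2.09 for ALDOC, while the middle 90% of all genes lay between -0.80 and 0.75.

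**Figure D3:**
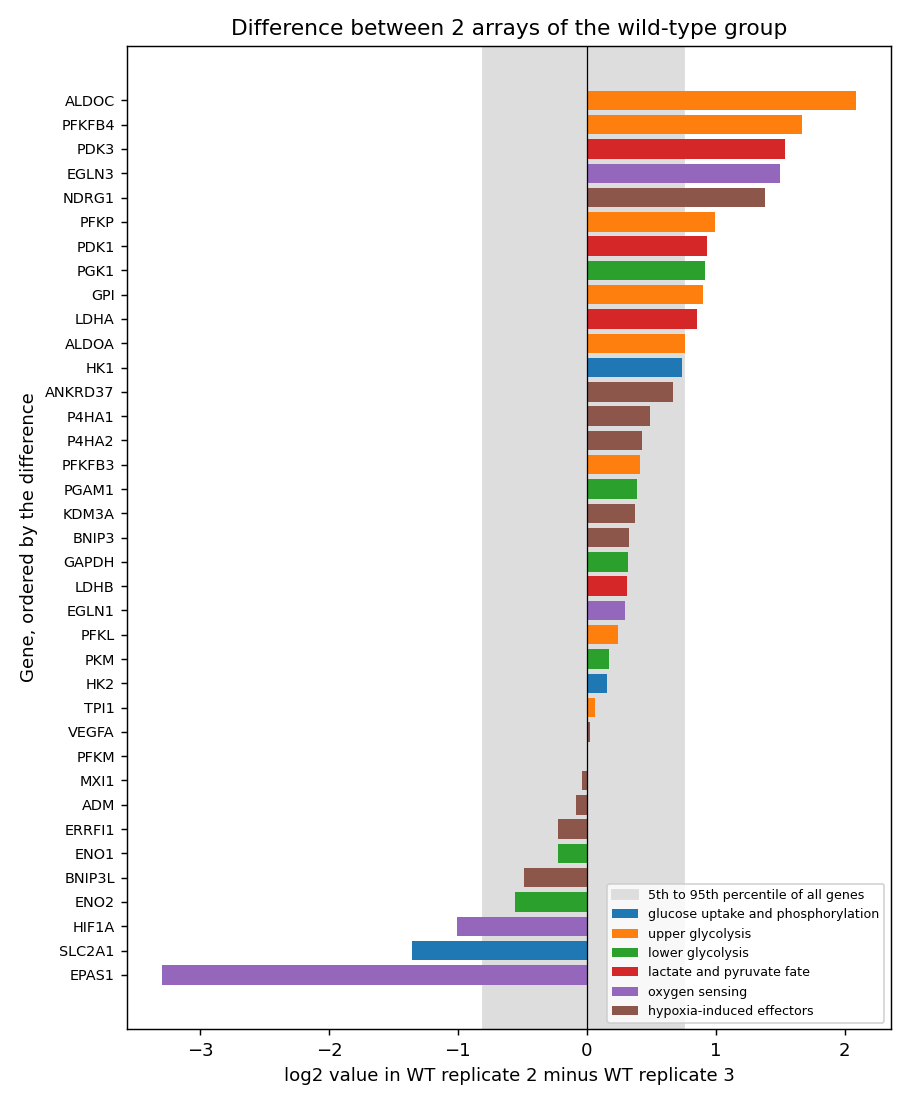
Bars give the log2 value in WT replicate 2 minus that in WT replicate 3 for each measured member, ordered by size and coloured by role, over a grey band from the 5th to the 95th percentile of all genes. Every bar of upper glycolysis points to the right of 0, though that of PFKM is too short to see, and EPAS1 is the farthest to the left at -3.29.

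WT replicate 2 was the highest of the 9 arrays for 20 of 37 members (54.1%, against 20.3% of all genes) and WT replicate 3 the lowest for 18 (48.6%, against 24.3%). WT replicate 2 was the lowest array for 5 members, SLC2A1, ENO1, ENO2, HIF1A and EPAS1 (background 20.2%), and WT replicate 3 the highest for 7 (background 17.7%). Further probe sets gave the same sign of that distance for many genes but not for all, as in all 5 of ALDOC (1.30 to 2.09), all 9 of PGK1 (0.92 to 1.35), all 8 of HIF1A (-1.30 to -0.80) and all 4 of SLC2A1 (-1.36 to -0.14). They were split for PFKFB3 (2 of 4 positive, -0.18 to 0.41), PDK1 (1 of 2, -0.10 to 0.94) and EGLN3 (2 of 3, with -0.09 in the third). Over all members, 43 of the 50 further probe sets with a mean of at least 5 followed the probe set used, with a correlation above 0.8 over the 9 arrays. Of the 33 dimmer ones 8 did. Of the probe sets used, 12 carry the array maker's suffix _s_at and 9 the suffix _x_at, which mark probes that can also match other transcripts. Levels of enzymes with such probe sets and close paralogs or pseudogenes, such as GAPDH and LDHA, may include them.

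To see whether the members moved together across all arrays, and not in 2 of them, each gene was correlated with LDHA, the member whose probe set had the highest mean; this choice was made after the data were seen. Across 9 arrays and with exact permutation p-values adjusted by Benjamini-Hochberg over 18238 genes, 20 of the other 36 members were positively related to LDHA (55.6%, against 15.7% of all genes) and 6 were negatively related (16.7%, against 13.7%). Pearson's r was 0.777 to 0.990 for the positive and -0.950 to -0.810 for the negative members. With each group's mean removed and the 9 arrays pooled, the ranges were 0.871 to 0.996 and -0.962 to -0.871. The relation thus also held in the pooled deviations from the group means. No construct was read on its own, and LDHA spread most in WT (SD 0.43, against 0.27 in Del52 and 0.16 in Ins5). Ordered by LDHA, the arrays stood in the order of the first principal component over all genes, except that Del52 replicate 3 and Ins5 replicate 3 changed places. The relation to LDHA thus largely follows that array-wide axis. The arrays share their processing and no batch is named, and genes are not independent of each other.

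The positively related members were enzymes along the whole pathway and several HIF targets. ALDOC had r = 0.990 over the 9 arrays (exact permutation p = 1.38e-05, adjusted p = 0.000841) and Spearman's rho = 1.00 (exact permutation p = 5.51e-06, the smallest the design allows). PGK1, the first ATP-yielding enzyme of glycolysis, had r = 0.981 (exact permutation p = 2.76e-05, adjusted p = 0.000986) and rho = 0.996 (p = 1.10e-05). The negatively related members were the glucose transporter SLC2A1, the enolases ENO1 and ENO2, the factors HIF1A and EPAS1, and BNIP3L, a receptor for mitophagy that also clears mitochondria from maturing red cells. EPAS1 had r = -0.950 (exact permutation p = 0.000105, adjusted p = 0.00155) and rho = -0.967 (p = 0.000165), and SLC2A1 had r = -0.937 (exact permutation p = 0.000135, adjusted p = 0.00174) and rho = -0.95.

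The 10 members with no called relation were HK2, PFKL, PFKM, TPI1, PKM, VEGFA, ADM, P4HA2, MXI1 and ERRFI1. VEGFA, the angiogenic growth factor and a classical HIF target, had r = -0.0198 with LDHA (exact permutation p = 0.958, adjusted p = 0.975). Without the arrays farthest from the median of LDHA, which were WT replicates 2 and 3, all 26 related members kept the sign of r, at 0.618 to 0.981 and -0.875 to -0.619. With 7 arrays only 5 positive members (HK1, PFKFB4, ALDOC, GAPDH and PGK1) and 0 negative members passed by the same exact permutation test, and 1.27% of all genes did. With 1 array left out, 19.6% of all genes were related without WT replicate 2 and 18.7% without WT replicate 3. Without any other single array the share was 24.8% to 29.4%. How the fall at 7 arrays divides between the loss of those 2 arrays and the smaller number was not tested. ALDOC (r = 0.981), EPAS1 (r = -0.875) and SLC2A1 (r = -0.846) kept large coefficients over the remaining 7.

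The letters of the members' promoters were then read for the HIF core, and a part of HIF in the shared movement was not tested. The RefSeq windows (GRCh38.p14) are 300 bases long, most of it before an annotated start and the last 50 after it. The windows of LDHA, ALDOC and PGK1 are shown as examples with several ACGTG cores, and those of EPAS1 and SLC2A1 as genes that ran the opposite way and carry none. They were chosen after the matches were seen. Of other members with r above 0.9 to LDHA, HK1, PFKFB4, PGAM1, LDHB and EGLN3 held no ACGTG in any window. GPI, PFKP and PDK3 held 1, and PFKFB3, ALDOA and GAPDH held up to 2 in a window. Capitals mark ACGTG on either strand (CACGT is its reverse complement), and CACGTG, which also is the site of MYC and USF factors, reads as a match on both strands. The windows are LDHA at chr11:18394313-18394612 (plus strand), ALDOC at chr17:28576846-28577145 (minus strand), PGK1 at chrX:78103998-78104297 (plus strand), EPAS1 at chr2:46297157-46297456 (plus strand) and SLC2A1 at chr1:42958819-42959118 (minus strand), each spanning a promoter and the start of the first exon.
LDHA: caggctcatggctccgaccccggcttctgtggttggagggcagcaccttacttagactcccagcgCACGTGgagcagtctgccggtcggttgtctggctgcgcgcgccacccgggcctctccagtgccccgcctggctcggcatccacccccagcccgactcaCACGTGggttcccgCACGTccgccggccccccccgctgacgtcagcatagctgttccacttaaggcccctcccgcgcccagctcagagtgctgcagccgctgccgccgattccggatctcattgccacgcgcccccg
ALDOC: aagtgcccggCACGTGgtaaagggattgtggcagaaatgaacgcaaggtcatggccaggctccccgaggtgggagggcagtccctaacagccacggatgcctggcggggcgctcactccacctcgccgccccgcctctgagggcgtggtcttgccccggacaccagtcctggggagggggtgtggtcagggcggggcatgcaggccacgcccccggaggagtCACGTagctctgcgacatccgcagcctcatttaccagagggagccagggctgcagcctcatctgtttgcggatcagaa
PGK1: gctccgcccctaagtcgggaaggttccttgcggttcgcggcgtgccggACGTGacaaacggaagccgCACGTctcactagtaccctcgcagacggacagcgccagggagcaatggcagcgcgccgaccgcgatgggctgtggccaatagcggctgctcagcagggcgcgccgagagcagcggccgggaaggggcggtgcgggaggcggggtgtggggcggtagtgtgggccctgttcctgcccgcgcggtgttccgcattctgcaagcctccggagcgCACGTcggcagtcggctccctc
EPAS1: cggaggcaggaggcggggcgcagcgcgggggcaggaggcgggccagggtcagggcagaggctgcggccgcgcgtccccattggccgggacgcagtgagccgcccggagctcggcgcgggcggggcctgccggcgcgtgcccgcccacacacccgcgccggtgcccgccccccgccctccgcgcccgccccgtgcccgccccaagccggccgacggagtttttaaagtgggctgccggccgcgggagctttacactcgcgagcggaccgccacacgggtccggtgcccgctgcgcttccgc
SLC2A1: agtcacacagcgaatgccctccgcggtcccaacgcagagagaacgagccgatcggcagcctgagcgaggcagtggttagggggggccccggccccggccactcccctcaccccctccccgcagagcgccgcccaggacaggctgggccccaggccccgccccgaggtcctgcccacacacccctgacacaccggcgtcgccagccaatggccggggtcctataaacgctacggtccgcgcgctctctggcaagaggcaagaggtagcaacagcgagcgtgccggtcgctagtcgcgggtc

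LDHA held 5 matches to ACGTG, with 2 CACGTG words counted on both strands, ALDOC 3 and PGK1 3, while EPAS1 and SLC2A1 held 0. Over all members, 38.3% of their 60 windows held ACGTG, against 23.0% of the windows of measured genes and 21.4% of all 35116 RefSeq windows. For GCGTG the share was 43.3%, the same as in the windows of measured genes (43.3%; 36.5% of all windows). Counted by gene, 19 of 34 members with a window held at least 1 ACGTG (55.9%), against 28.8% of 14492 measured genes. A gene with more windows has more room for a match. The members had 60 windows for 34 genes, against 20506 windows for the 14492 measured genes. The counts by relation to LDHA that follow have the same limit, and the list was made to include known HIF targets. Among members positively related to LDHA, with LDHA itself, 14 of 20 with a window held ACGTG, among the negatively related 1 of 5 (ENO2) and among the others 4 of 9. GCGTG was split otherwise, with 11 of 20, 4 of 5 and 6 of 9. A match is a description of letters and was not measured as a bound site, and GCGTG, the other core, was present once in the SLC2A1 window and once in that of EPAS1.

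Against this spread, the comparison of constructs gave no member that passed the test. Between Del52 and WT, limma with Benjamini-Hochberg adjustment over all 18239 genes called 0 of 37 members and 0% of all genes. At an unadjusted p under 0.05 there was 1 member (2.70%), HK2, against 7.05% of all genes. The difference was positive for 19 of 37 members (51.4%, against 54.6% of all genes), with a median of 0.00 (0.01 over all genes) and a range of -0.41 to 0.30. The smallest adjusted p among the members, by limma, was 0.603.

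HK2, the inducible hexokinase that traps glucose in the cell, read 6.23, 6.42 and 6.27 in WT, 6.74, 6.52 and 6.58 in Del52 and 6.33, 6.35 and 6.45 in Ins5. Every Del52 array lay above every WT and every Ins5 array. The means were 6.61 ± 0.11 in Del52 and 6.31 ± 0.10 in WT (SD, n = 3 each), a difference of 0.30 ± 0.08 (SE; limma, unadjusted p = 0.00414, adjusted p = 0.603). It was 1 of 37 members whose Del52 arrays all exceeded WT, against 6.23% of all genes. A dimmer probe set of HK2, with a mean of 3.93, gave 0.07, and the mean of both gave 0.19.

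VEGFA was the 1 member whose Del52 arrays all lay below WT (4.36% of all genes did so), with 9.71, 9.49 and 9.47 in WT, 8.68, 9.40 and 9.37 in Del52 and 9.87, 9.37 and 9.43 in Ins5. Del52 replicate 1 stood well below the other 8 arrays. The difference of -0.41 ± 0.21 (SE; limma, adjusted p = 0.764) became -0.17 without that array, and the 10 VEGFA probe sets gave -0.42 to -0.20 with it. P4HA2, a collagen prolyl hydroxylase, read 5.46, 5.84 and 5.41 in WT, 5.95, 5.63 and 5.86 in Del52 and 5.68, 5.62 and 5.82 in Ins5, a difference of 0.24 ± 0.13 (SE; limma, adjusted p = 0.781) between overlapping groups, and 0.37 without WT replicate 2. PFKL, the liver phosphofructokinase subunit, differed by 0.12 ± 0.07 (SE; limma, adjusted p = 0.827) between Del52 and WT, and by 0.07 without WT replicate 3 or 0.19 without WT replicate 2, and by 0.04 with the mean of its probe sets.

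Between Ins5 and WT, limma called 0 of 37 members and 0% of all genes, and 1 member passed an unadjusted p of 0.05 (2.70%, against 7.41% of all genes). Here too 19 of 37 differences were positive (51.4%, against 59.6%), with a median of 0.01 (0.02 over all genes) and a range of -0.15 to 0.19. That member was PFKL, with 4.97, 5.13 and 4.89 in WT, 5.17, 5.03 and 5.14 in Del52 and 5.16, 5.14 and 5.27 in Ins5. Every Ins5 array was above every WT array by a small margin, and PFKL was the 1 member with that order (8.16% of all genes had it), while 0 members had the reverse order (3.30% of all genes). The difference was 0.19 ± 0.07 (SE; limma, unadjusted p = 0.0304, adjusted p = 0.641), other PFKL probe sets gave 0.08 and -0.14, and their mean with it gave 0.04.

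PKM, which encodes the pyruvate kinases of muscle and of proliferating cells, read 7.57, 7.71 and 7.53 in WT, 7.65, 7.63 and 7.65 in Del52 and 7.75, 7.64 and 7.79 in Ins5, a difference of 0.12 ± 0.06 (SE; limma, adjusted p = 0.717) between Ins5 and WT, or 0.06 with the mean of its probe sets. P4HA1, another catalytic subunit of collagen prolyl hydroxylase, read 6.48, 6.66 and 6.17 in WT, 6.59, 6.47 and 6.85 in Del52 and 6.63, 6.57 and 6.69 in Ins5. Its difference of 0.19 ± 0.14 (SE; limma, adjusted p = 0.844) became 0.06 without WT replicate 3, which was the lowest array, and 0.30 without WT replicate 2. ERRFI1 differed by -0.09 ± 0.08 (SE; limma, adjusted p = 0.896), and by -0.04 without Ins5 replicate 1, -0.05 without WT replicate 3 and -0.16 without WT replicate 2. In PKM, P4HA1 and ERRFI1 the Ins5 and WT arrays overlapped.

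Between Del52 and Ins5, 0 of 37 members and 0% of all genes were called, and 1 member, HK2, passed an unadjusted p of 0.05 (2.70%, against 5.77% of all genes). The difference was positive for 18 of 37 members (48.6%, against 45.4%), with a median of -0.01, the same as over all genes, and a range of -0.40 to 0.23. HK2 was the 1 member with all Del52 arrays above Ins5 (3.81% of all genes), by 0.23 ± 0.08 (SE; limma, unadjusted p = 0.0154, adjusted p = 0.841), or 0.13 with the mean of its probe sets. MXI1, an antagonist of MYC that HIF induces, was the 1 member with all Del52 arrays below Ins5 (6.28% of all genes), with 7.68, 7.50 and 7.53 in WT, 7.27, 7.53 and 7.51 in Del52 and 7.66, 7.58 and 7.57 in Ins5. Its difference was -0.17 ± 0.08 (SE; limma, adjusted p = 0.910), -0.08 without Del52 replicate 1 and -0.00039 with the mean of its probe sets. VEGFA differed by -0.40 ± 0.21 (SE; limma, adjusted p = 0.938), by -0.17 without that array and by -0.26 with the mean of its probe sets.

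The moderated F test over the 3 groups called 0 members and 0% of all genes, with a smallest adjusted p among the members of 0.669, for HK2 (limma). At an unadjusted p under 0.05 it held 1 member, again HK2, against 7.23% of all genes. The comparisons share arrays, so HK2 against WT, against Ins5 and in the F test rests on 1 set of Del52 values.

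**Figure D4:**
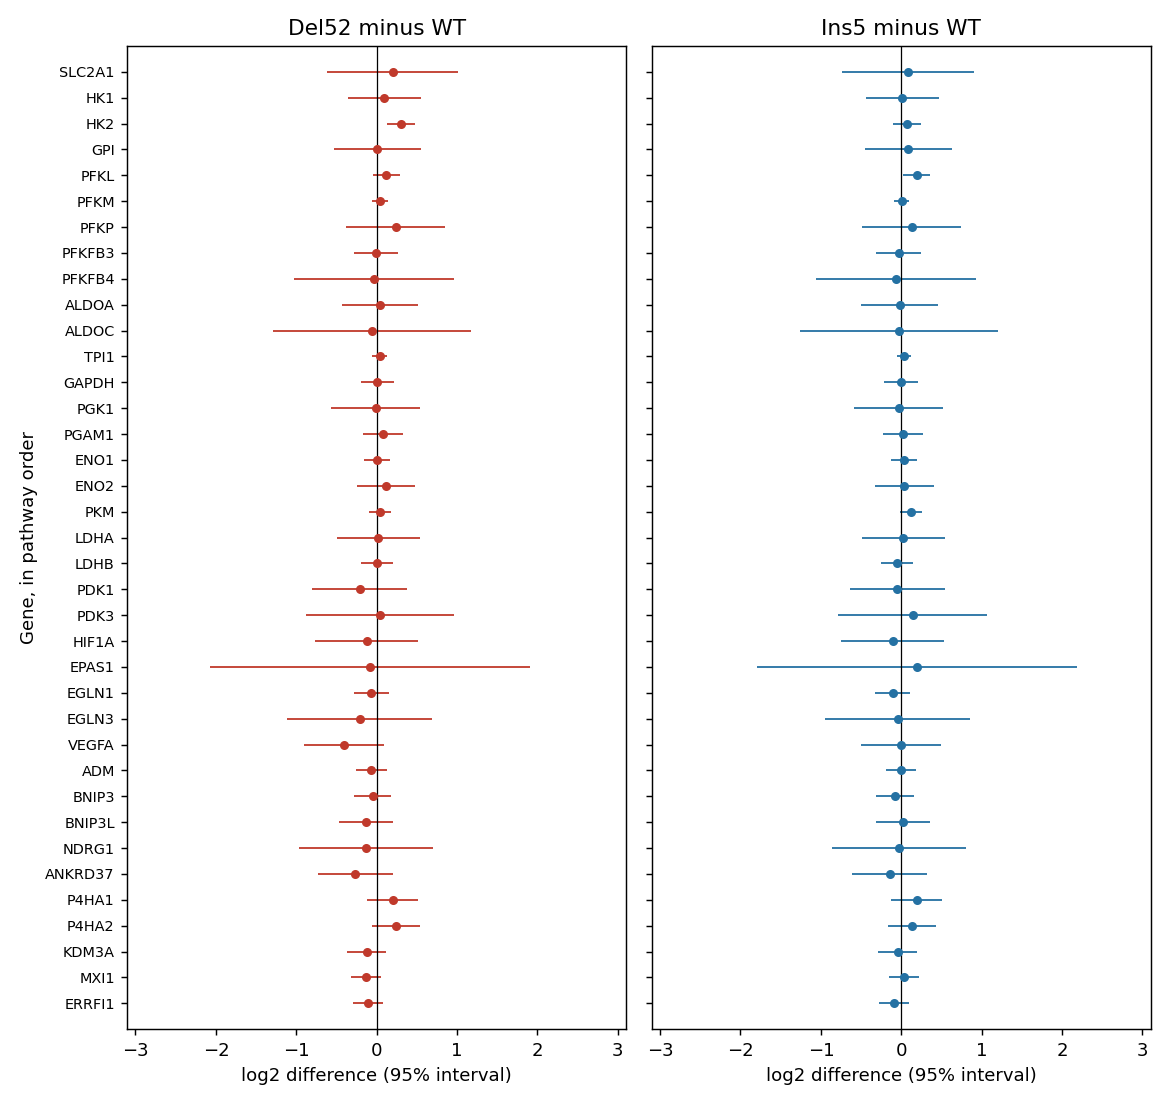
Points are the limma log2 differences of the 37 measured members, in pathway order, for Del52 minus WT and for Ins5 minus WT, with bars for the 95% confidence interval. Most points lie close to 0, HK2 reaches 0.30 and VEGFA -0.41 between Del52 and WT, and the intervals are widest for genes that differed between arrays of 1 construct, such as EPAS1.

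By role, the medians were small in every comparison. Glucose uptake and phosphorylation had 3 of 3 measured genes positive between Del52 and WT, with a median of 0.20, which is the value of SLC2A1, and 0.07 between Ins5 and WT. Upper glycolysis had medians of 0.04 and 0.01, lower glycolysis 0.02 and 0.03, and lactate and pyruvate fate 0.01 and -0.01. Oxygen sensing had -0.11 and -0.08, with 0 of 4 genes positive between Del52 and WT, and the effectors had -0.12 and -0.00, with 2 of 11 positive. None of the genes in these groups passed the test by limma, and the roles hold 3 to 11 measured genes each.

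How large a difference could be missed is set by the spread between arrays. The median 95% confidence half-width of a member's log2 difference was 0.34. Within 0.2 of 0 lay 29 of 37 members between Del52 and WT, 37 of 37 between Ins5 and WT and 34 of 37 between Del52 and Ins5. For SLC2A1, the main glucose transporter, the difference between Del52 and WT was 0.20 with a half-width of 0.82, and the means were 7.26 ± 0.68 (WT), 7.45 ± 0.40 (Del52) and 7.34 ± 0.32 (Ins5; SD, n = 3 for each). EPAS1 had means of 6.87 ± 1.65 (WT), 6.78 ± 0.85 (Del52) and 7.06 ± 0.93 (Ins5; SD, n = 3 for each), and differences of the size of its own spread were not detectable.

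**Figure D5:**
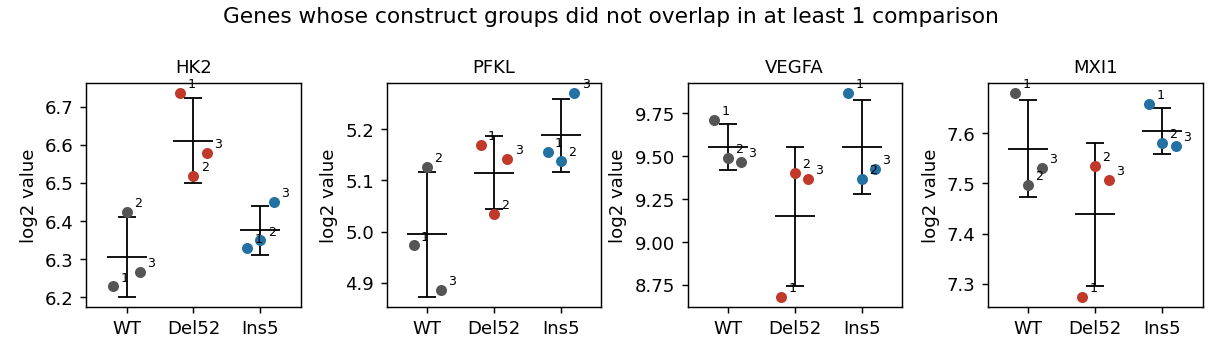
Log2 values of single arrays by construct for members whose groups did not overlap in at least 1 comparison, with horizontal lines at the group means, bars of 1 SD (n = 3) and replicate numbers beside the points. HK2 in Del52 (6.52 to 6.74) lies above WT (6.23 to 6.42) and Ins5 (6.33 to 6.45), and VEGFA has 1 low Del52 array at 8.68.

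Other genes of the pathway, a list of 68 with HIF regulators, further HIF targets, tissue isozymes, pyruvate dehydrogenase, the pentose phosphate branch and the glucose-sensing MondoA axis, gave the same counts of calls. Of 65 measured, limma called 0 in each of the 3 comparisons. At an unadjusted p under 0.05, 1 was higher and 2 lower in Del52 against WT (4.10% and 2.95% of all genes), 0 and 1 in Ins5 against WT (5.15% and 2.25%) and 1 and 2 in Del52 against Ins5 (2.22% and 3.55%). Positive differences numbered 32, 36 and 27 of 65, with medians of -0.00, 0.01 and -0.03.

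The smallest p values belonged to TXNIP, a brake on glucose uptake that MondoA induces, with means of 10.49 ± 0.12 for WT, 10.02 ± 0.26 for Del52 and 10.45 ± 0.15 for Ins5 (SD, n = 3 each). It differed by -0.47 ± 0.14 (SE; limma, adjusted p = 0.603) between Del52 and WT and by -0.42 (limma, adjusted p = 0.841) between Del52 and Ins5. Without Del52 replicate 1 these TXNIP differences were -0.33 and -0.29. INSIG2, which retains the sterol sensor in the endoplasmic reticulum, differed by -0.23 (limma, adjusted p = 0.633) between Del52 and WT and by -0.19 (adjusted p = 0.659) between Ins5 and WT, or -0.12 without Ins5 replicate 3. HIF3A, a HIF family member, differed by 0.21 (limma, adjusted p = 0.701) between Ins5 and WT, by 0.11 without Ins5 replicate 3, by 0.14 without WT replicate 3 and by -0.0053 with the mean of its probe sets. PDK2, a pyruvate dehydrogenase kinase, differed by 0.11 (limma, adjusted p = 0.841) between Del52 and Ins5, or 0.06 with the mean of its probe sets. Every Del52 array of TXNIP lay below every WT and Ins5 array, and by limma none of these genes passed.

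Along the arrays, 16 of these 65 genes were positively related to LDHA (24.6%, against 15.7% of all genes) and 8 negatively (12.3%, against 13.7%) by the same exact permutation test. Examples, chosen after their values were seen, were PDHA1, the subunit that commits pyruvate to the mitochondrion (r = 0.991), TALDO1 of the pentose phosphate branch (r = 0.990), the glycogen branching enzyme GBE1 (r = 0.966) and VHL, which marks HIF for degradation (r = 0.959). On the negative side were the adenylate kinase AK4 (r = -0.964), the HIF antagonist CITED2 (r = -0.842) and HIF1AN, which blocks HIF's coactivator contact (r = -0.830). Without WT replicates 2 and 3 the coefficients of PDHA1 (0.977), TALDO1 (0.988), VHL (0.969), GBE1 (0.924) and AK4 (-0.919) stayed large, and HIF1AN had -0.713.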

How the data were processed

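Total RNA of 9 K562 samples, 3 each with WT, Del52 or Ins5 CALR, was labelled and hybridised to Affymetrix arrays. Each probe set of the deposited table holds a log2 expression value per array, which the authors made with Partek and RMA per the submitters' processing notes; RMA corrects background, normalizes between arrays and summarises probes. Their versions were not given in the sources used here, and base 2 was inferred from the highest value, 12.2. Arrays carry no read depth, so their number limits the precision.

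Of 49386 probe sets, 93 controls, 1327 with several gene symbols and 2713 with none were left out. In the platform annotation 45253 had 1 symbol, of which 45172 matched RefSeq (GRCh38.p14). Each gene was represented by the probe set whose mean over 9 arrays was highest. Groups were compared with limma 3.58.1 in R 4.3.3, in 1 fit over all 9 arrays with 6 residual degrees of freedom and Benjamini-Hochberg adjustment over 18239 genes; the code was tested on simulated data. A gene passed at an adjusted p under 0.05, and tests are two-sided. Relations to LDHA used exact permutation over all orders of 9 arrays in Python 3.11.15 with numpy 2.4.6.

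Values in every array were given for the 4 members with the smallest p per test, those with groups that did not overlap at an unadjusted p under 0.05, the 6 with the largest SD within groups, the 3 highest and 3 lowest by mean, HIF1A and EPAS1. Of other pathway genes, those called or the 2 with the smallest p per comparison were named. Alternatives covered normalization, centring, probe set choice, a level filter, array weights, a replicate block, a principal component as covariate and left-out arrays. The members and lists were chosen with earlier results of these data known.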

Additional observations from a re-analysis of the deposited data

How the results depend on the processing

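With limma, 0 members were called under quantile normalization, median centring, the mean of probe sets, a filter on level, an intensity trend, fits on 6 arrays, and with each array left out in turn (0 to 0 in every comparison and in the F test). Array weights were the exception. They called 5 of 37 members between Del52 and WT, where 3190 of 18239 genes were called. Between Ins5 and WT they called 5 members and 4017 genes, and in the F test 10 members. The number of all genes called in that F test is not given here. The weight estimation did not converge and gave WT replicate 1 a weight of 67.0. With 1 array left out, the members' median difference ran from -0.08 to 0.09 for Del52 and WT, from -0.09 to 0.09 for Ins5 and WT and from -0.04 to 0.05 for Del52 and Ins5, with both ends set by WT replicates 2 and 3 in the comparisons with WT. The smallest adjusted p of a member with the first principal component as covariate was 0.0733, 0.0746 and 0.183 in the 3 comparisons. Leaving out both WT replicates 2 and 3, an alternative added after the data were seen, called 0 members. HIF3A between Ins5 and WT changed sign to -0.0053 with the mean of probe sets; the cause was not tested.

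The replicate block called 0 members in each comparison. Deviations of samples with the same number correlated between -0.923 and 0.643, so the numbers were not taken as pairs.

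Of the relations to LDHA, 20 positive and 6 negative, leaving out 1 array gave 16 to 21 and 4 to 6. Leaving out WT replicates 2 and 3 gave 5 and 0 with fewer arrays. The share of all genes related to LDHA changed as well. It was 29.4% with every array, 18.7% to 29.4% with 1 array left out and 1.27% without WT replicates 2 and 3. With 3 arrays a group and wide spread within WT, small differences were not detectable here.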
